A study of Homo sapiens with 20 samples.

Results

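The ATF4 stress response and the genes of amino acid supply were followed in human leukaemia lines of the T lineage (T-ALL, T cell acute lymphoblastic leukaemia) given the NBD peptide or a control peptide. The genes were a given list of 39, matched by symbol to the annotation of the Affymetrix U133 Plus 2.0 array, older symbols of the tRNA synthetases included. Of the 39 genes, 38 had a probe set of their own and all 38 passed the filter on low values, out of 13787 genes tested. MARS1, the methionine tRNA synthetase, had only probe sets annotated with more than 1 gene and has no value here. By function the listed genes were 6 transcription regulators, 8 stress effectors, 8 enzymes of amino acid and one-carbon synthesis, 6 amino acid carriers and 11 genes of tRNA charging and export.

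Total RNA of the lines T-ALL1, KOPT-K, HPB-ALL, DND41 and CEM was hybridised to 20 arrays. In each of these 5 lines, 2 arrays came from cells given NBD and 2 from cells given a control peptide, both after 16 h. The NBD peptide carries the NEMO binding domain and interrupts canonical NF-kB signalling, since it keeps NEMO (IKK gamma) from binding IKK alpha and IKK beta. The question of the design was which transcripts differ between the peptides in each line. The labels give the peptide dose as micromolar in one place and millimolar in another, and no statement here rests on it. Nothing in them tells if both arrays of a group had cultures of their own, so the p-values cover array-to-array spread that could be technical. Each is an established cell line, and no untreated cells were among the arrays.

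All lines carried T lineage transcripts: of 16 measured markers, 11 lay above the filter level on all 20 arrays and 0 lay below it on all arrays. The summed log2 intensity of the 16 was 125.0 to 157.2 on NBD arrays and 125.8 to 160.8 on control arrays, and 8 of them fell in the average over lines, where 6.14% of all genes fell (limma adjusted p under 0.05). In DND41, where 1.74% of all genes fell, CD3D, CD7 and CD247 of these T lineage markers were lower, by 0.72, 0.78 and 0.34 on the log2 scale (limma adjusted p = 0.000199, 0.00082 and 0.020). For the other cell types, 6 of 8 myeloid, 2 of 7 B cell and 5 of 11 fibroblast or epithelial markers were below the filter level on all arrays, and 0 of the tested markers of these cell types passed in the average. In DND41 the B cell marker CD79A had a mean log2 intensity of 10.17 with NBD against 11.46 with the control peptide, a fall of 1.28 ± 0.20 (SE; 0.41-fold, limma adjusted p = 0.0054), and the part of these markers in the DND41 results was not tested. Median intensities per array were 30.3 to 34.1. The columns of KOPT-K and T-ALL1 hold more decimals and higher mean intensities than those of the other lines, so levels were set side by side only within KOPT-K and T-ALL1 or within CEM, DND41 and HPB-ALL. RNA integrity was read from actin, as the log2 ratio of its 3' to its 5' probe set, which averaged 1.03 ± 0.05 (SD, n = 2) with NBD in T-ALL1 against 2.61 ± 0.78 with the control peptide, and its part in the results within T-ALL1 was not tested. The other 8 group means of that difference lay between 0.85 and 1.76.

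ATF4 is the transcription factor of the integrated stress response: kinases that sense amino acid shortage, misfolded protein, haem loss or double-stranded RNA phosphorylate the initiation factor eIF2, general translation falls and translation of ATF4 mRNA rises. ATF4, often paired with a C/EBP protein, then switches on genes that import and make amino acids, load them onto tRNAs and regulate the stress response itself. Asparaginase, which depletes asparagine outside the cell, is an established drug in acute lymphoblastic leukaemia. ATF4 is controlled to a large extent at its translation, which arrays of transcripts do not measure.

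Many of the listed genes carry the DNA element that ATF4 and its C/EBP partners bind, which is shown here because the genes with it include several that moved. The C/EBP-ATF response element (CARE) was searched as TGATGNAA on both strands, where it reads TTNCATCA in reverse, in RefSeq windows from 250 bases before to 50 bases after each gene start (GRCh38.p14). It was found in 13 of the 33 listed genes with a window (39.4%), against 1217 of 27305 genes (4.46%). By function it was in 1 of 5 regulators, 1 of 7 effectors, 1 of 5 synthesis enzymes, 3 of 5 carriers and 7 of 11 charging and export genes. The genes were CEBPG, CHAC1, ASNS, SLC3A2, SLC7A1, SLC1A5, AARS1, GARS1, CARS1, MARS1, NARS1, IARS1 and TARS1. The cyclic AMP response element, searched as TGACGTCA, which is its own reverse, shares no whole match with CARE and was found in PPP1R15A alone (3.03% of the listed genes, against 2.25% of all genes). SHMT2, PSPH, PYCR1, SLC7A11, EIF4EBP1 and NUPR1 had no window. Stretches of 30 bases around the element follow for genes described below, 5' to 3' on the strand of the gene, with the element in capitals; the last shows the cyclic AMP response element and the others CARE.
CEBPG: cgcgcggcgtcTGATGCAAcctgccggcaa
ASNS: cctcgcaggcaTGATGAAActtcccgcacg
SLC3A2: gtaatgtgcaggactccTTACATCAgctcc
SLC7A1: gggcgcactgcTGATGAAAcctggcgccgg
IARS1: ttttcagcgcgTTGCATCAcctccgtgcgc
TARS1: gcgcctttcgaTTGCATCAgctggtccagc
PPP1R15A: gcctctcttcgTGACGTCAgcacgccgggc
These stretches lie at chr19:33374060-33374089 (+ strand) for CEBPG, chr7:97872458-97872487 (- strand) for ASNS, chr11:62881719-62881748 (+ strand) for SLC3A2, chr13:29595663-29595692 (- strand) for SLC7A1, chr9:92293692-92293721 (- strand) for IARS1, chr5:33440956-33440985 (+ strand) for TARS1 and chr19:48872352-48872381 (+ strand) for PPP1R15A. From the gene start, the first base of the element was at -42 in CEBPG, -68 in ASNS, 38 in SLC3A2, 8 in SLC7A1, -13 in IARS1, 3 in TARS1 and -58 in PPP1R15A, where negative positions lie before the start. A match of letters is a description of the window and not a measured binding site. The list was drawn up around the ATF4 response, so its higher share of CARE is not independent support for that response.

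The listed genes that changed with NBD rose in some lines and fell in another. In T-ALL1, 7 of 38 rose and 0 fell, where 1.15% of all genes rose and 2.3% fell (limma, adjusted p under 0.05 over 13787 genes). In KOPT-K, 4 rose and 0 fell, where 0.892% of all genes rose and 0.384% fell. In DND41, 0 rose and 7 fell, where 0.733% of all genes rose and 1.74% fell. In CEM (0.392% of all genes higher, 0.74% lower) and in HPB-ALL (0.138% higher, 0.646% lower) 0 of 38 passed in either direction. At an unadjusted p under 0.05, limma had 1 listed gene higher and 3 lower in CEM (10.5% of the 38, against 13.4% of all genes). In HPB-ALL it had 6 higher and 0 lower (15.8%, against 10.4% of all genes). Fewer cells of a kind and less RNA per cell cannot be told apart in these bulk samples.

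The medians of the 38 log2 differences (NBD minus control) ran in order: 0.21 in T-ALL1, 0.18 in KOPT-K, 0.07 in HPB-ALL, -0.02 in CEM and -0.13 in DND41, while the median over all genes lay between -0.02 and -0.01 in each line. Both NBD arrays lay above both control arrays for 24 of 38 listed genes in T-ALL1 (18.7% of all genes), 21 in KOPT-K (18.9%) and 17 in HPB-ALL (20.7%), but for 6 in DND41 (21.6%) and 7 in CEM (21.0%). They lay below both control arrays for 25 in DND41 (27.8% of all genes) and 16 in CEM (28.2%), against 1 in T-ALL1 (24.0%), 5 in KOPT-K (23.6%) and 5 in HPB-ALL (29.1%). As many as 27 of the 38 (71.1%) had a positive difference in T-ALL1 and a negative one in DND41, as had 27.5% of all genes tested, and 4 had the opposite pair of signs. Among the functions, the carriers held the widest medians in 3 lines: 0.49 in T-ALL1, 0.34 in KOPT-K and -0.35 in DND41, and the charging and export genes followed in T-ALL1 with 0.25, all 10 positive.

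**Figure D1:**
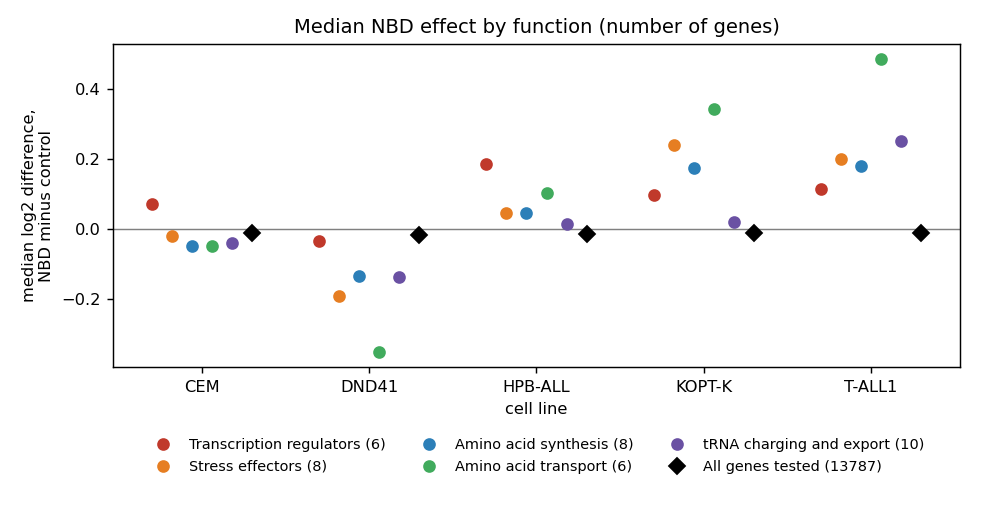
Median log2 difference (NBD minus control, vertical axis) of each functional group of listed genes in each cell line (horizontal axis), with all 13787 genes tested as black diamonds. The carriers (green) reached 0.49 in T-ALL1 and -0.35 in DND41, while the diamonds stayed between -0.02 and -0.01.

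The counts within single lines rested on few arrays. The SE given for a line's difference came from a spread shared by all 10 groups, not from that line's arrays alone. With only the 4 arrays of the line in the fit, 0 of the listed genes passed in limma in DND41, in KOPT-K and in T-ALL1. Of all 13787 genes, 3, 19 and 0 passed in these fits, and 2131, 1452 and 1174 had an unadjusted p under 0.05. Leaving out any 1 of the line's own arrays lowered the count of listed genes that passed in DND41. In KOPT-K and T-ALL1 the count was lower without NBD 1, NBD 2 or control 1 and higher without control 2. Over all genes, the number that rose in KOPT-K and in T-ALL1 was also largest, among these fits, without control 2. T-ALL1 control 1 and control 2 had actin 3' to 5' differences of 3.16 and 2.05.

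Across the lines together, 7 of the 38 genes rose and 1 fell in the average of the 5 within-line differences, where 2.24% of all genes rose and 6.14% fell (limma, adjusted p under 0.05). Those that rose were the regulators ATF4, DDIT3 and CEBPG, the effectors PPP1R15A and SESN2, the carrier subunit SLC3A2 and the synthetase EPRS1, and the one that fell was the proline enzyme ALDH18A1. This average describes these 5 lines only: in a limma fit with the lines as replicates, 0 of the 38 passed, as did 0.0% of all genes in either direction. At an unadjusted p under 0.05 that fit had 5 of the 38 (13.2%) and 1639 of all genes (11.9%). The 5 were PPP1R15A, PYCR1, SLC3A2 and DDIT3, which were higher, and ALDH18A1, which was lower. With a trended robust prior 0 of the 38 passed as well, where 11 of all genes rose and 58 fell. With the actin 3' to 5' difference as a covariate in limma, 6 of these 7 still rose. EPRS1 and ALDH18A1 no longer passed with it (limma adjusted p = 0.15 and 0.25). The effector STC2 fell by 0.26 with it (limma adjusted p = 0.041, against 0.50 without the covariate). STC2 lay near the filter level of 4.998, at 4.61 to 5.38 with 4 arrays below it. Without T-ALL1, 4 listed genes rose and 6 fell in the average over the other lines, where 409 of all 13787 genes rose and 942 fell. Without KOPT-K, 2 rose and 0 fell, where 147 of all genes rose and 677 fell. Without HPB-ALL 2 rose and 1 fell, where 170 of all genes rose and 414 fell.

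**Figure D2:**
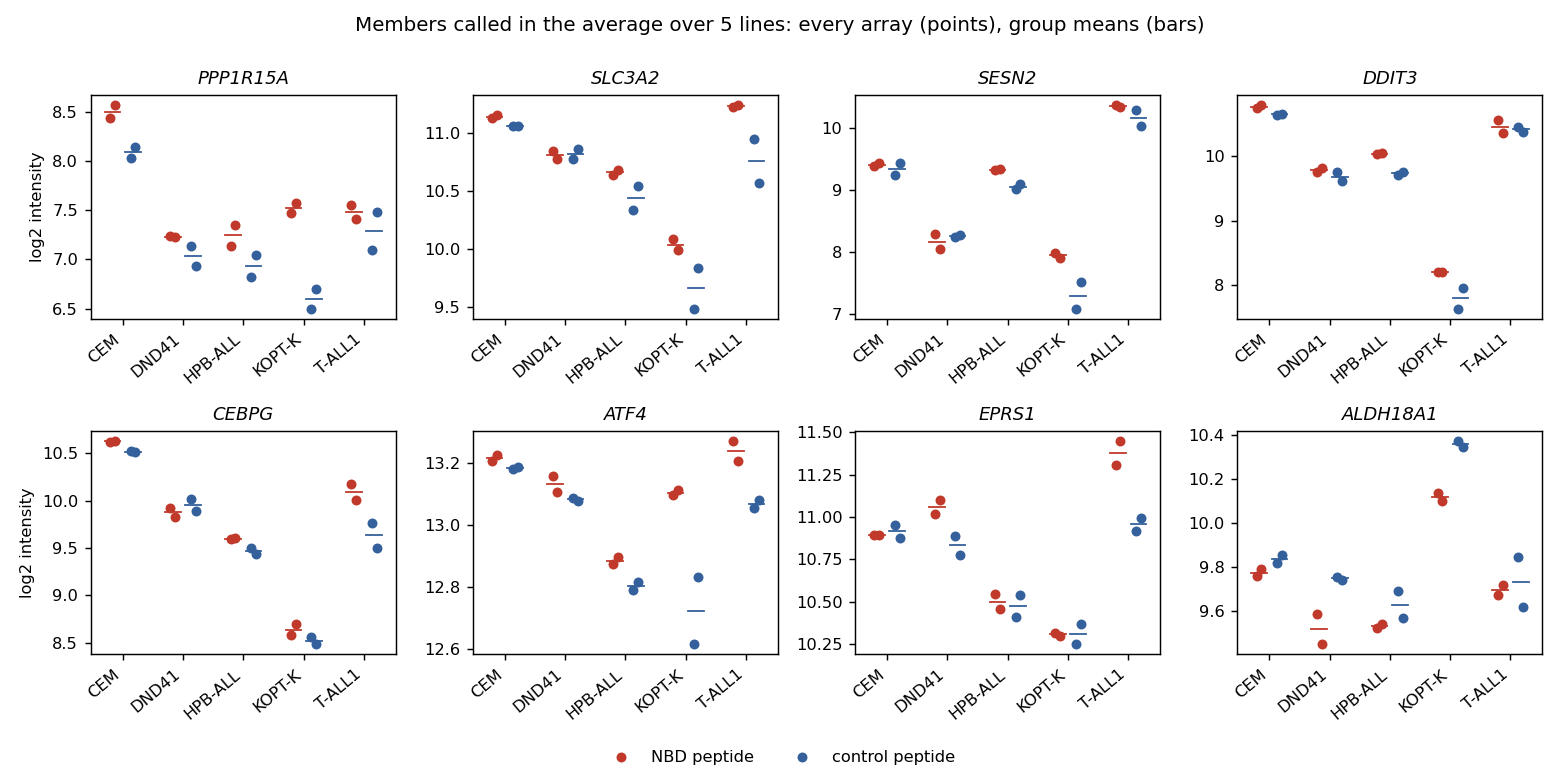
Log2 intensity (vertical axes) of the 8 listed genes that passed in the average, on every array (points) with group means (bars), NBD in red to the left of control in blue, by cell line (horizontal axes). ATF4 has both NBD points above both control points in 5 of 5 lines, and ALDH18A1 has them below in 4.

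Among the regulators, ATF4 itself was slightly higher with NBD in all 5 lines. Its arrays read (log2 intensity) NBD 13.21 and 13.23 against control 13.18 and 13.19 in CEM, NBD 13.16 and 13.11 against control 13.09 and 13.08 in DND41 and NBD 12.87 and 12.90 against control 12.79 and 12.82 in HPB-ALL. They read NBD 13.10 and 13.12 against control 12.61 and 12.83 in KOPT-K and NBD 13.27 and 13.21 against control 13.06 and 13.08 in T-ALL1. Both NBD arrays lay above both control arrays in all 5 lines. The average difference was 0.14 ± 0.03 (SE), a 1.10-fold higher level (limma adjusted p = 0.012), and it stayed past the threshold in all 20 fits that each left out 1 array. The difference was widest in KOPT-K, at 0.38 ± 0.07 (limma adjusted p = 0.014), a call lost without KOPT-K NBD 1 (0.092), NBD 2 (0.11) or control 1 (0.13). Without the KOPT-K line the average was 0.08 (limma adjusted p = 0.11).

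DDIT3, also called CHOP, is a C/EBP family member induced in prolonged stress. The arrays of DDIT3 read (log2 intensity) NBD 10.74 and 10.77 against control 10.63 and 10.65 in CEM, NBD 9.75 and 9.81 against control 9.74 and 9.62 in DND41 and NBD 10.03 and 10.04 against control 9.70 and 9.76 in HPB-ALL. DDIT3 read NBD 8.21 and 8.20 against control 7.64 and 7.97 in KOPT-K and NBD 10.55 and 10.34 against control 10.45 and 10.36 in T-ALL1. The NBD arrays lay above the control arrays in CEM, DND41, HPB-ALL and KOPT-K and overlapped them in T-ALL1. DDIT3 averaged 0.19 ± 0.04 higher (1.14-fold, limma adjusted p = 0.014), which held in all 20 fits that left out 1 array, but not without HPB-ALL (0.16, limma adjusted p = 0.12) or KOPT-K (0.14, 0.06).

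CEBPG, a C/EBP protein that pairs with ATF4, carries CARE at -42 as printed above. Its arrays read NBD 10.62 and 10.63 against control 10.52 and 10.51 in CEM, NBD 9.92 and 9.83 against control 10.02 and 9.89 in DND41 and NBD 9.59 and 9.60 against control 9.50 and 9.44 in HPB-ALL. Those of the other lines read NBD 8.58 and 8.69 against control 8.56 and 8.48 in KOPT-K and NBD 10.17 and 10.004 against control 9.76 and 9.50 in T-ALL1. The NBD arrays were above the control arrays in every line but DND41, where they overlapped. CEBPG rose by 0.46 ± 0.09 in T-ALL1 (1.37-fold, limma adjusted p = 0.019) and by 0.15 ± 0.04 in the average (limma adjusted p = 0.04). Without the T-ALL1 line the average was 0.07 (limma adjusted p = 0.24), and it missed the threshold in 14 of 20 fits without 1 array, with limma adjusted p at most 0.093. In T-ALL1 the call was lost without NBD array 1 (limma adjusted p = 0.21).

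The remaining regulators were CEBPB, ATF5 and NUPR1. CEBPB, the C/EBP protein best known from inflammation and amino acid shortage, read NBD 10.65 and 10.70 against control 11.19 and 11.09 in DND41, with the groups apart. Its fall by 0.47 in DND41 was near the threshold (limma adjusted p = 0.048) and was lost in 16 of 20 fits without 1 array, the highest limma adjusted p being 0.32 without DND41 control 1. ATF5, a factor translated under the same control as ATF4, had differences of -0.10 to 0.20 and did not pass in any line. NUPR1, a small stress-induced chromatin protein, was below the filter level on 16 of 20 arrays, so that its values say little.

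The effectors held the largest average change of the list. PPP1R15A, or GADD34, is the subunit that directs a phosphatase to eIF2 and so ends the stress response. Its arrays read NBD 8.44 and 8.57 against control 8.03 and 8.15 in CEM, NBD 7.24 and 7.23 against control 7.13 and 6.93 in DND41 and NBD 7.14 and 7.36 against control 6.82 and 7.05 in HPB-ALL. Those of the other lines read NBD 7.47 and 7.58 against control 6.50 and 6.70 in KOPT-K and NBD 7.56 and 7.41 against control 7.10 and 7.48 in T-ALL1. The groups were apart in every line but T-ALL1, where control array 2 lay between the NBD arrays. PPP1R15A rose by 0.41 ± 0.06 in the average (1.33-fold, limma adjusted p = 0.00089) and by 0.92 ± 0.13 in KOPT-K (1.90-fold, limma adjusted p = 0.0024). Both calls held in all 20 fits without 1 array. Its second probe set rose as well, by 0.33 in the average (limma adjusted p = 0.0055) and by 0.80 in KOPT-K (0.0099).

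SESN2, a leucine sensor that restrains mTORC1, rose with it in KOPT-K. The arrays of SESN2 read (log2 intensity) NBD 9.39 and 9.43 against control 9.25 and 9.44 in CEM, NBD 8.29 and 8.05 against control 8.25 and 8.27 in DND41 and NBD 9.32 and 9.34 against control 9.02 and 9.09 in HPB-ALL. SESN2 read NBD 7.99 and 7.91 against control 7.09 and 7.52 in KOPT-K and NBD 10.36 and 10.35 against control 10.29 and 10.03 in T-ALL1. The NBD arrays were above the control arrays in HPB-ALL, KOPT-K and T-ALL1 and overlapped them in the other lines. SESN2 was 0.65 ± 0.13 higher in KOPT-K (1.57-fold, limma adjusted p = 0.022) and 0.22 ± 0.06 higher in the average (limma adjusted p = 0.029). The KOPT-K call was lost without KOPT-K control 1 (limma adjusted p = 0.20), NBD 1 (0.14) or NBD 2 (0.10). The average call was lost in 11 of 20 fits without 1 array, with limma adjusted p at most 0.061, and without the KOPT-K line (0.11, limma adjusted p = 0.25).

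TRIB3, a pseudokinase that binds AKT and ATF4 and dampens the response, showed the widest contrast between lines among the effectors. The arrays of TRIB3 read (log2 intensity) NBD 12.60 and 12.63 against control 12.87 and 12.93 in CEM, NBD 10.36 and 10.18 against control 11.16 and 11.12 in DND41 and NBD 10.91 and 10.99 against control 10.59 and 10.67 in HPB-ALL. TRIB3 read NBD 9.17 and 9.22 against control 8.95 and 9.07 in KOPT-K and NBD 11.28 and 11.03 against control 11.03 and 10.89 in T-ALL1. The groups were apart in all 5 lines, with NBD lower in CEM and DND41 and higher in HPB-ALL, KOPT-K and T-ALL1. TRIB3 fell by 0.87 ± 0.09 in DND41 (0.55-fold, limma adjusted p = 0.00033), and a second probe set fell by 0.68 there (limma adjusted p = 0.0093). The differences in the other lines, -0.28 to 0.32, did not pass, nor did the average of -0.09 (limma adjusted p = 0.22). Over CEM, DND41 and HPB-ALL alone the average was -0.28 (limma adjusted p = 0.0081), and over KOPT-K and T-ALL1 alone it was 0.19 (0.45).

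CHAC1, which breaks down glutathione, carries CARE further from its start. The arrays of CHAC1 read (log2 intensity) NBD 8.80 and 9.13 against control 8.76 and 9.20 in CEM, NBD 6.04 and 5.88 against control 6.43 and 6.35 in DND41 and NBD 7.23 and 7.14 against control 6.997 and 7.19 in HPB-ALL. CHAC1 read NBD 7.59 and 7.71 against control 6.73 and 7.32 in KOPT-K and NBD 8.77 and 8.66 against control 8.45 and 8.33 in T-ALL1. NBD was lower in DND41 and higher in KOPT-K and T-ALL1 with no overlap, and the groups overlapped in CEM and HPB-ALL. None of its differences passed: the widest were 0.62 ± 0.18 in KOPT-K (limma adjusted p = 0.13) and -0.43 ± 0.18 in DND41 (limma adjusted p = 0.27).

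EIF4EBP1, which holds back cap-dependent translation, fell in DND41. The arrays of EIF4EBP1 read (log2 intensity) NBD 10.72 and 10.76 against control 10.94 and 10.93 in CEM, NBD 9.81 and 9.73 against control 10.43 and 10.36 in DND41 and NBD 9.28 and 9.28 against control 9.30 and 9.49 in HPB-ALL. EIF4EBP1 read NBD 9.78 and 9.55 against control 9.63 and 9.83 in KOPT-K and NBD 10.21 and 10.07 against control 10.05 and 9.79 in T-ALL1. NBD lay below control without overlap in CEM, DND41 and HPB-ALL and above it in T-ALL1. The fall in DND41 was 0.63 ± 0.11 on the log2 scale (0.65-fold, limma adjusted p = 0.0076), which was lost without DND41 NBD 2 (limma adjusted p = 0.095) or control 1 (0.093), and the average of -0.16 ± 0.05 did not pass (limma adjusted p = 0.06). DDIT4, an mTORC1 inhibitor, had differences of -0.06 to 0.20, VLDLR, a lipoprotein receptor, -0.23 to 0.29, and STC2, a secreted glycoprotein, -0.29 to 0.03, and none of these passed in any line.

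**Figure D3:**
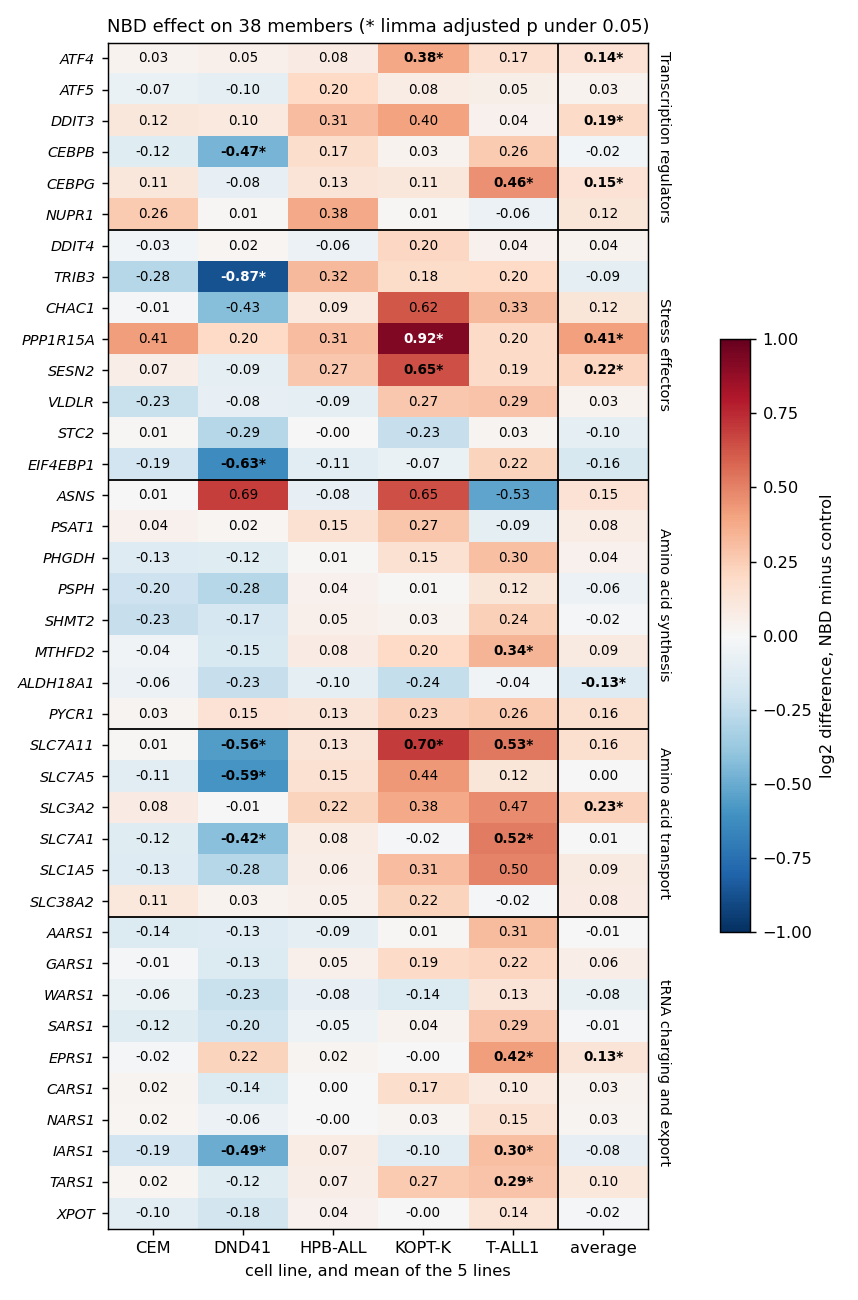
Log2 difference (NBD minus control, colour scale and printed values) of the 38 listed genes (rows, grouped by function) in each cell line and in the mean of the 5 lines (columns), with asterisks at limma adjusted p under 0.05. Blue cells gather in DND41, where 28 of 38 differences were negative, and red cells in T-ALL1, where 33 of 38 were positive.

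Of the 8 enzymes of amino acid and one-carbon synthesis, 1 rose in T-ALL1 and 0 passed in KOPT-K or DND41. Of all genes, 1.15% rose in T-ALL1, while 1.28% passed in KOPT-K and 2.47% in DND41. With 8 genes, a count of 0 is near these shares. ASNS makes asparagine and is the best-known ATF4 target, with CARE at -68. Its arrays read NBD 11.12 and 11.18 against control 11.16 and 11.12 in CEM, NBD 4.70 and 5.33 against control 4.05 and 4.59 in DND41 and NBD 5.48 and 5.09 against control 5.31 and 5.42 in HPB-ALL. Those of the other lines read NBD 7.52 and 7.51 against control 6.61 and 7.13 in KOPT-K and NBD 4.66 and 4.65 against control 5.45 and 4.91 in T-ALL1. NBD lay above control in DND41 and KOPT-K and below it in T-ALL1, with overlap in CEM and HPB-ALL. The differences were 0.69 ± 0.23 in DND41, 0.65 ± 0.23 in KOPT-K and -0.53 ± 0.23 in T-ALL1, and none passed (limma adjusted p = 0.16, 0.27 and 0.22). In DND41 and T-ALL1 these levels lay near the filter level of 4.998, with 6 arrays of ASNS below it in all.

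ALDH18A1 starts the synthesis of proline from glutamate. The arrays of ALDH18A1 read (log2 intensity) NBD 9.76 and 9.79 against control 9.82 and 9.85 in CEM, NBD 9.59 and 9.45 against control 9.76 and 9.74 in DND41 and NBD 9.52 and 9.54 against control 9.69 and 9.57 in HPB-ALL. ALDH18A1 read NBD 10.14 and 10.10 against control 10.37 and 10.34 in KOPT-K and NBD 9.67 and 9.72 against control 9.85 and 9.62 in T-ALL1. NBD lay below control without overlap in every line but T-ALL1. The average difference was -0.13 ± 0.03 (0.91-fold, limma adjusted p = 0.032). The call was lost in 12 of 20 fits without 1 array, with limma adjusted p at most 0.072, and the other ALDH18A1 probe set had an average difference of -0.03 (limma adjusted p = 0.81). MTHFD2, a mitochondrial folate enzyme, read NBD 13.27 and 13.21 against control 12.85 and 12.94 in T-ALL1 and rose by 0.34 ± 0.08 there (limma adjusted p = 0.033), lost without T-ALL1 NBD 1 (0.26), NBD 2 (0.077) or control 1 (0.15).

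The serine pathway did not pass in any line. PHGDH, its first enzyme, had differences of -0.13 to 0.30, PSAT1, which follows it, -0.09 to 0.27, PSPH, which releases serine, -0.28 to 0.12, and SHMT2, which turns serine into glycine in mitochondria, -0.23 to 0.24. PYCR1, the last enzyme of proline synthesis, had a positive difference in all 5 lines, 0.03 to 0.26, and its mean of 0.16 did not pass.

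Of the 6 amino acid carriers, 5 had a negative difference in DND41 and a positive one in T-ALL1, that of SLC3A2 in DND41 being near 0 (-0.0065). SLC7A11 imports cystine for glutathione synthesis. Its arrays read NBD 11.38 and 11.47 against control 11.45 and 11.38 in CEM, NBD 9.69 and 9.79 against control 10.28 and 10.31 in DND41 and NBD 10.30 and 10.35 against control 10.17 and 10.22 in HPB-ALL. Those of the other lines read NBD 8.998 and 9.09 against control 8.09 and 8.60 in KOPT-K and NBD 10.75 and 10.55 against control 10.13 and 10.12 in T-ALL1. NBD lay below control in DND41 and above it in HPB-ALL, KOPT-K and T-ALL1 without overlap, and the groups overlapped in CEM. SLC7A11 fell by 0.56 ± 0.12 in DND41 (0.68-fold, limma adjusted p = 0.03). It rose by 0.70 ± 0.12 in KOPT-K (1.62-fold, limma adjusted p = 0.012) and by 0.53 ± 0.12 in T-ALL1 (1.44-fold, 0.037).

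The call of SLC7A11 in DND41 was lost without any of the 4 DND41 arrays (limma adjusted p up to 0.17), that in KOPT-K without control 1, NBD 1 or NBD 2 (up to 0.11), and that in T-ALL1 in 11 of 20 fits without 1 array (up to 0.31). Of its other probe sets, both had the same sign in all 3 lines, and 1 passed in T-ALL1 (0.58, limma adjusted p = 0.011).

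SLC3A2 is the heavy chain that SLC7A11 and SLC7A5 need to reach the membrane. The arrays of SLC3A2 read (log2 intensity) NBD 11.13 and 11.16 against control 11.06 and 11.06 in CEM, NBD 10.85 and 10.78 against control 10.78 and 10.86 in DND41 and NBD 10.64 and 10.68 against control 10.34 and 10.55 in HPB-ALL. SLC3A2 read NBD 10.09 and 9.99 against control 9.49 and 9.84 in KOPT-K and NBD 11.23 and 11.24 against control 10.95 and 10.57 in T-ALL1. NBD lay above control in every line but DND41, where the groups overlapped. SLC3A2 rose by 0.23 ± 0.05 in the average (1.17-fold, limma adjusted p = 0.02), which held in all 20 fits without 1 array but not without the HPB-ALL, KOPT-K or T-ALL1 line (limma adjusted p = 0.064, 0.061 and 0.064). It passed in no single line.

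SLC7A5, the light chain that imports leucine and other large neutral amino acids, fell in DND41. The arrays of SLC7A5 read (log2 intensity) NBD 11.48 and 11.58 against control 11.62 and 11.66 in CEM, NBD 10.65 and 10.49 against control 11.20 and 11.13 in DND41 and NBD 10.34 and 10.32 against control 10.15 and 10.21 in HPB-ALL. SLC7A5 read NBD 10.31 and 10.18 against control 9.55 and 10.06 in KOPT-K and NBD 11.40 and 11.28 against control 11.28 and 11.16 in T-ALL1. NBD lay below control in CEM and DND41 and above it in HPB-ALL and KOPT-K, and the groups overlapped in T-ALL1. The fall in DND41 was 0.59 ± 0.13 on the log2 scale (0.66-fold, limma adjusted p = 0.028), lost without any of the 4 DND41 arrays (limma adjusted p up to 0.25). The difference of 0.44 ± 0.13 in KOPT-K did not pass (limma adjusted p = 0.15).

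SLC7A1 imports arginine and lysine. The arrays of SLC7A1 read (log2 intensity) NBD 11.81 and 11.77 against control 11.89 and 11.93 in CEM, NBD 11.23 and 11.09 against control 11.62 and 11.54 in DND41 and NBD 11.37 and 11.41 against control 11.33 and 11.30 in HPB-ALL. SLC7A1 read NBD 11.35 and 11.36 against control 11.36 and 11.38 in KOPT-K and NBD 12.33 and 12.25 against control 11.70 and 11.84 in T-ALL1. The groups were apart in all 5 lines, with NBD lower in CEM, DND41 and, by little, KOPT-K. SLC7A1 rose by 0.52 ± 0.07 in T-ALL1 (1.44-fold, limma adjusted p = 0.0021), which held in all 20 fits without 1 array, and a second probe set rose by 0.89 there (limma adjusted p = 0.0028). Its 3 further probe sets had T-ALL1 differences of 0.46, 0.41 and 0.07 and did not pass (limma adjusted p = 0.24, 0.064 and 0.90). In DND41 it fell by 0.42 ± 0.07 (0.75-fold, limma adjusted p = 0.0069), lost without DND41 NBD 2 (0.10) or control 1 (0.10), and none of its 4 other probe sets passed there (differences of -0.21 to 0.01). SLC1A5, the glutamine carrier, had differences of -0.28 to 0.50, and SLC38A2, a carrier of small neutral amino acids, -0.02 to 0.22; neither passed in any line.

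The tRNA synthetases attach amino acids to their tRNAs. IARS1, for isoleucine, carries CARE just before its start. Its arrays read NBD 11.996 and 11.98 against control 12.19 and 12.17 in CEM, NBD 10.08 and 10.06 against control 10.62 and 10.51 in DND41 and NBD 10.52 and 10.55 against control 10.50 and 10.42 in HPB-ALL. Those of the other lines read NBD 10.57 and 10.51 against control 10.68 and 10.61 in KOPT-K and NBD 11.70 and 11.55 against control 11.29 and 11.35 in T-ALL1. The groups were apart in all 5 lines, with NBD higher in HPB-ALL and T-ALL1 and lower in the others. IARS1 fell by 0.49 ± 0.07 in DND41 (0.71-fold, limma adjusted p = 0.0022) and rose by 0.30 ± 0.07 in T-ALL1 (1.23-fold, limma adjusted p = 0.031). The DND41 call was lost without control 1 (limma adjusted p = 0.052), and the T-ALL1 call without NBD 1 (0.31) or control 1 (0.12).

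EPRS1 charges tRNAs for glutamate and proline. The arrays of EPRS1 read (log2 intensity) NBD 10.90 and 10.90 against control 10.95 and 10.88 in CEM, NBD 11.02 and 11.10 against control 10.89 and 10.78 in DND41 and NBD 10.55 and 10.46 against control 10.41 and 10.54 in HPB-ALL. EPRS1 read NBD 10.32 and 10.30 against control 10.25 and 10.37 in KOPT-K and NBD 11.31 and 11.45 against control 10.92 and 10.997 in T-ALL1. NBD lay above control in DND41 and T-ALL1, with overlap in the other lines. EPRS1 rose by 0.42 ± 0.08 in T-ALL1 (1.34-fold, limma adjusted p = 0.014), lost without T-ALL1 NBD 1 (0.057), NBD 2 (0.081) or control 1 (0.066). It rose by 0.13 ± 0.03 in the average (limma adjusted p = 0.035), but without the T-ALL1 line the average was 0.06 (limma adjusted p = 0.38), and the call was lost in 11 of 20 fits without 1 array (at most 0.085). The other EPRS1 probe sets had average differences of 0.27 and -0.07 (limma adjusted p = 0.46 and 0.33) and T-ALL1 differences of 1.20 and 0.12 (0.11 and 0.41), and neither passed.

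TARS1, for threonine, read NBD 12.08 and 11.99 against control 11.64 and 11.86 in T-ALL1. It rose by 0.29 ± 0.07 there (limma adjusted p = 0.049), a call kept in 1 of 20 fits without 1 array (limma adjusted p up to 0.35). The other synthetases (AARS1, GARS1, WARS1, SARS1, CARS1 and NARS1) and XPOT, which exports tRNAs from the nucleus, did not pass in any line. All 7 had positive differences in T-ALL1, 0.10 to 0.31, and negative ones in DND41, -0.23 to -0.06.

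The difference of the NBD effect between the lines was tested gene by gene with a moderated F-test (limma). It passed for 5 of the 38 listed genes (13.2%), against 1.83% of all genes. They were TRIB3 (limma adjusted p = 0.00102), SLC7A1 (0.00259), IARS1 (0.00574), SLC7A11 (0.0117) and SLC7A5 (0.0494). Their effects spanned 1.20, 1.03 and 1.26 on the log2 scale between the lowest and the highest line in TRIB3, SLC7A5 and SLC7A11, and 0.94 and 0.80 in SLC7A1 and IARS1. DND41 was the lowest line in all 5. The highest line was HPB-ALL for TRIB3, KOPT-K for SLC7A11 and SLC7A5, and T-ALL1 for SLC7A1 and IARS1.

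Without the DND41 line, 1 of the 38 passed, which was SLC7A1 (limma adjusted p = 0.040), where 64 of all 13787 genes passed. Without T-ALL1, 4 passed, where 223 of all genes passed. Within CEM, DND41 and HPB-ALL alone 4 passed as well, where 184 of all genes passed. Within KOPT-K and T-ALL1 alone 0 passed, where 1 of all genes passed and 1281 had an unadjusted p under 0.05 in limma. These settings were chosen after the data had been seen. More of the 38, and also more of all genes, passed without T-ALL1 control 2 or without KOPT-K control 2. The call of SLC7A5 was kept in 3 of 20 fits without 1 array (limma adjusted p up to 0.16), while those of TRIB3, SLC7A1, IARS1 and SLC7A11 held in all 20.

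**Figure D4:**
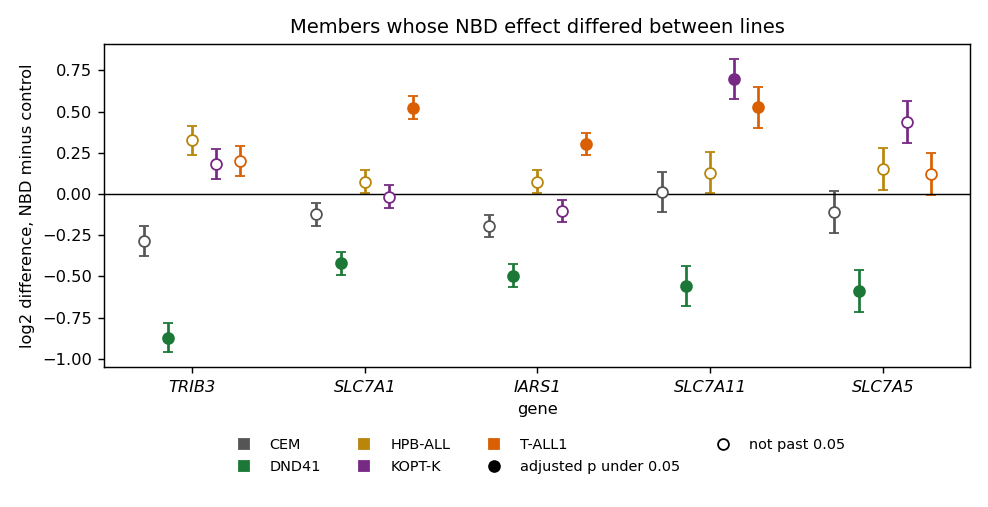
Log2 difference (NBD minus control, vertical axis; points, with bars of 1 SE) for the 5 genes whose effect differed between lines (horizontal axis), by cell line in colour; filled points have a limma adjusted p under 0.05. DND41 (green) was the lowest point for every gene, at -0.87 for TRIB3.

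The lines also differed in how much of the machinery they carried, which the following control levels describe without a test. PSAT1 had a mean log2 intensity of 13.47 in CEM and 4.76 in HPB-ALL, and of the other pair 11.17 in KOPT-K and 3.81 in T-ALL1. It was below the filter level on every HPB-ALL and T-ALL1 array. ASNS stood at 11.14 in CEM against 4.32 in DND41, and at 6.87 in KOPT-K against 5.18 in T-ALL1. VLDLR was at 9.05 in CEM and below the filter level on all HPB-ALL arrays, at 4.53. CEM had the highest control mean among CEM, DND41 and HPB-ALL for ATF4, DDIT3, TRIB3, CHAC1 and SLC7A11, among others, while PSPH was highest in HPB-ALL at 10.64 and lowest in DND41 at 8.23.

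Over the 38 genes, the median range of control means was 0.97 among CEM, DND41 and HPB-ALL, against 0.44 over all genes, and 0.68 between KOPT-K and T-ALL1, against 0.32. PHGDH, the enzyme before PSAT1, had control means of 11.47 in CEM and 9.26 in HPB-ALL, and of 11.59 in T-ALL1 and 10.67 in KOPT-K, so T-ALL1, with PSAT1 below the filter level, was the higher of that pair for PHGDH. ATF4 itself ran from 12.80 in HPB-ALL to 13.19 in CEM, and from 12.72 in KOPT-K to 13.07 in T-ALL1. These ranges, 0.38 and 0.35, were near the medians over all genes and below those of the 38.

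**Figure D5:**
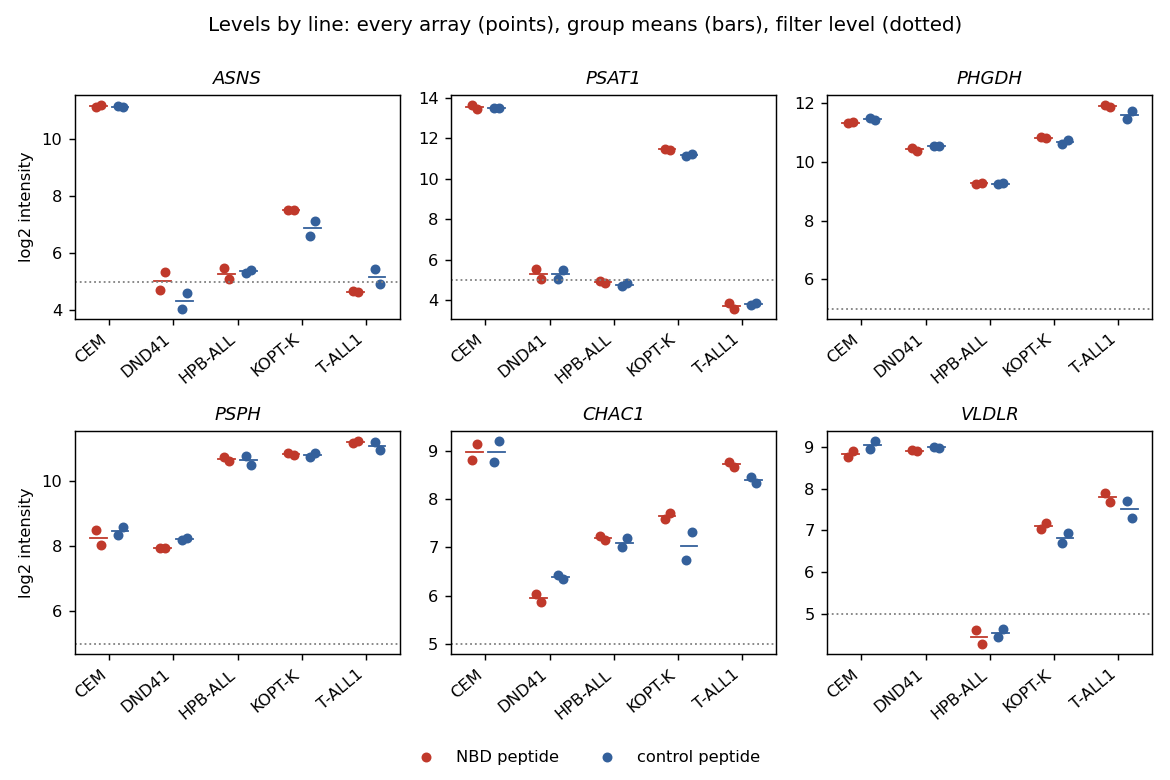
Log2 intensity (vertical axes) of 6 listed genes on every array (points) with group means (bars), NBD in red to the left of control in blue, by cell line (horizontal axes), and the filter level as a dotted line where it falls in range. PSAT1 lies under the dotted line on all HPB-ALL and T-ALL1 arrays and at 13.42 to 13.62 in CEM; levels of CEM, DND41 and HPB-ALL and of KOPT-K and T-ALL1 are not set against each other.

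Other genes of the pathway were counted in the same way, against 2.24% of all genes higher and 6.14% lower in the average. Of 15 genes upstream of ATF4 that were tested (the eIF2 kinases, eIF2 and eIF2B subunits and their phosphatase partners), 0 passed in the average. At an unadjusted p under 0.05 in limma there was 1 (6.67%, against 21.8% of all genes). EIF2S1, the eIF2 subunit that is phosphorylated, was the 1 gene that passed in a line. It fell by 0.40 ± 0.08 in DND41 (limma adjusted p = 0.018), where 1.74% of all genes fell. Of 10 further ATF4 targets, 2 rose in the average: ATF3, an immediate stress factor, by 0.85, and NDRG1, by 0.19 ± 0.05 (limma adjusted p = 0.043). ATF3 read NBD 9.05 and 9.01 against control 6.94 and 7.23 in KOPT-K. Its difference was 1.95 ± 0.13 there and 0.41 to 0.87 in the other lines, DND41 included (0.48), where most listed genes had negative differences. In CEM, DND41 and HPB-ALL 0 of these 10 targets, ATF3 included, rose at a limma adjusted p under 0.05. Of all genes, 0.392%, 0.733% and 0.138% rose in these lines, so 0 of 10 is near the shares of all genes. NDRG1 read NBD 10.31 and 10.14 against control 9.48 and 9.93 in KOPT-K and had a negative difference, -0.16, in T-ALL1 alone.

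Among 14 other enzymes of amino acid metabolism, CTH rose and MTHFD2L fell in the average. CTH, which makes cysteine from cystathionine, read NBD 5.01 and 5.54 against control 4.15 and 4.48 in KOPT-K and NBD 10.73 and 10.47 against control 10.20 and 9.93 in T-ALL1. It was 0.36 ± 0.07 higher in the average (limma adjusted p = 0.0099) and 0.96 ± 0.17 higher in KOPT-K (limma adjusted p = 0.012). Both KOPT-K control arrays lay below the filter level of 4.998, and NBD 1 was just above it. Every CEM array of CTH was below it as well, so the rise in KOPT-K lies near the filter level. MTHFD2L, a relative of MTHFD2, read NBD 7.31 and 7.26 against control 7.51 and 7.67 in HPB-ALL, and fell by 0.28 ± 0.05 in the average (limma adjusted p = 0.0038) with a negative difference in all 5 lines, in contrast to the rise of MTHFD2 in T-ALL1. PYCR3, a proline enzyme, read NBD 5.09 and 5.06 against control 5.66 and 5.60 in T-ALL1 and fell by 0.55 ± 0.10 there (limma adjusted p = 0.011).

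BCAT1, which transaminates branched-chain amino acids, read NBD 10.58 and 10.62 against control 11.10 and 11.09 in DND41 and NBD 8.77 and 8.81 against control 8.42 and 8.42 in KOPT-K. It fell by 0.50 ± 0.08 in DND41 and rose by 0.37 ± 0.08 in KOPT-K (limma adjusted p = 0.0058 and 0.038). GOT1, the cytosolic aspartate transaminase, read NBD 9.18 and 9.03 against control 9.45 and 9.40 in DND41 and NBD 9.36 and 9.39 against control 9.02 and 9.13 in T-ALL1, a fall of 0.32 ± 0.06 in DND41 and a rise of 0.30 ± 0.06 in T-ALL1 (limma adjusted p = 0.021 and 0.027). VEGFA, the angiogenic growth factor, read NBD 7.33 and 7.22 against control 7.54 and 7.82 in DND41 and NBD 8.49 and 8.44 against control 7.72 and 7.82 in KOPT-K, a fall of 0.41 ± 0.10 in DND41 and a rise of 0.70 ± 0.10 in KOPT-K (limma adjusted p = 0.04 and 0.0018). In all these pairs of groups the NBD arrays lay apart from the control arrays.

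Of 13 other amino acid carriers 0 passed in the average, and 1 had an unadjusted p under 0.05 in limma (7.69%, against 21.8% of all genes). Of 9 other cytosolic synthetase genes, FARSB, a subunit of the phenylalanine enzyme, fell by 0.15 ± 0.04 in the average (limma adjusted p = 0.023). FARSB read NBD 9.02 and 8.91 against control 9.49 and 9.52 in DND41 and NBD 10.16 and 10.07 against control 9.64 and 9.89 in T-ALL1, and so fell by 0.54 ± 0.08 in DND41 and rose by 0.35 ± 0.08 in T-ALL1 (limma adjusted p = 0.0046 and 0.037). Of 15 mitochondrial synthetases, EARS2, for glutamate, and VARS2, for valine, fell in the average, by 0.23 ± 0.04 and 0.15 ± 0.03 (limma adjusted p = 0.0034 and 0.02), and 0 rose. EARS2 read NBD 5.97 and 5.85 against control 6.51 and 6.50 in DND41, a fall of 0.60 ± 0.09 (limma adjusted p = 0.0046), and VARS2 read NBD 8.53 and 8.42 against control 8.66 and 8.68 in HPB-ALL, with negative differences in all 5 lines.

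The changes were also counted by the CARE printed above, with no test. Of 12 tested genes with the element, 4 rose in T-ALL1, 0 in KOPT-K, and 2 fell in DND41; of 20 without it, 2 rose in T-ALL1, 3 in KOPT-K, and 3 fell in DND41. Of all genes, 1.15% rose in T-ALL1, 0.892% rose in KOPT-K and 1.74% fell in DND41. Their median log2 differences were 0.31 and 0.15 in T-ALL1, 0.18 and 0.19 in KOPT-K, and -0.13 and -0.11 in DND41. Among the other probe sets of genes with a called change, 26 of 28 differences had the same sign as the chosen one and 9 passed over all probe sets.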

How the data were processed

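Transcript levels were measured on 20 Affymetrix U133 Plus 2.0 arrays (54675 probe sets) in 10 groups of 2 arrays, 5 lines with the NBD or the control peptide. The deposited values are linear intensities, normalized by the authors with RMA (robust multi-array average) per the submitters' processing notes, with other settings not given in the sources used here. They were taken to log2 with no pseudocount. Precision is limited by the number of arrays.

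Gene names came from the platform's annotation: 41097 had 1 gene, 1801 had several and 11777 had none, and 41043 of the first matched a RefSeq gene table. Each of 19775 genes was represented by the probe set with the highest mean, and 13787 reached the median of all values (intensity 31.96, log2 4.998) on at least 2 arrays. limma 3.58.1 in R 4.3.3 (lmFit, eBayes) was fitted with 1 mean per group and a shared spread (10 residual and 3.42 prior degrees of freedom). Benjamini-Hochberg adjustment ran over all genes at 0.05. The root mean square SD over genes was 0.23 in the T-ALL1 control group and 0.11 to 0.15 in the other groups, which a shared spread does not keep apart. The tests were the NBD minus control difference per line, its average over the lines, a moderated F-test between lines and a fit on group means with lines as replicates. The procedure was tested on simulated data, and figures and tables used Python 3.11.15.

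The members and gene lists were chosen with earlier results of these data known. Values on every array are given for members called in the average or between lines, for up to 4 members per line with the lowest p among those called, and for ATF4, DDIT3, TRIB3, CHAC1 and ASNS; of the other pathway lists, genes called in the average and the 3 with the lowest p per line are named, and EIF2S1 and YARS1 were added after their values were seen. Promoter windows are from RefSeq (GRCh38.p14). Alternatives tried were the filter, the probe set rule, centring, quantile normalization, a trended robust prior, fits per line, lines or arrays left out, an actin covariate and a replicate block. Same-numbered NBD and control arrays deviated with correlations of -0.28 to 0.14, so the numbers were not taken to pair the arrays.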

Additional observations from a re-analysis of the deposited data

Results flagged for a closer look

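The effect of NBD differed between the 5 lines for 12 of the genes followed (limma moderated F-test, adjusted over all genes tested). They were 5 of the 38 listed genes (13.2%) and 7 of 76 other pathway genes (9.21%), against 1.83% of all genes. For the listed genes the limma adjusted p was 0.00102 for TRIB3, 0.00259 for SLC7A1, 0.00574 for IARS1, 0.0117 for SLC7A11 and 0.0494 for SLC7A5, all lowest in DND41. Among the other pathway genes, the adjusted p was 0.00301 for ATF3, 0.0045 for BCAT1, 0.00737 for VEGFA, 0.0140 for FARSB and 0.0183 for GOT1 in the same limma test. The limma adjusted p was 0.0423 for both YARS1, the tyrosine tRNA synthetase, and EARS2. YARS1 fell by 0.34 ± 0.08 in DND41 and rose by 0.36 ± 0.08 in T-ALL1 (limma adjusted p = 0.0498 and 0.036). ATF3 differed in size, with a positive difference in every line, from 0.41 in CEM to 1.95 in KOPT-K, and did not pass in CEM, DND41 or HPB-ALL. Groups of 2 arrays were too small for a check of single arrays against the rest of their group.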

How the results depend on the processing

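Of 1044 repeats of single-gene results, 773 kept their side of the threshold, 268 fell short of it and 3 newly passed it. Those that kept their side include results that did not pass in the main fit. The count is of the threshold and not of the sign. The average of TRIB3 was negative over all lines and positive over KOPT-K and T-ALL1 alone, and passed in neither. Each count below is of the 38 listed genes, and the counts over all genes changed with the settings as well. Of 7 lower in DND41, 0 passed with its own 4 arrays and 1 with the replicate block. Of 4 higher in KOPT-K, 0 passed with its own arrays, 2 with the replicate block, 2 with crossed numbers and 8 with a trended robust prior. Of 7 higher in T-ALL1, 0 passed with its own arrays, 1 with the replicate block, 4 with crossed numbers, 3 with no filter and 13 with the trended prior. In HPB-ALL 1 rose with the trended prior, against 0. With that prior, 180 of all genes rose in KOPT-K, 272 in T-ALL1 and 28 in HPB-ALL, against 123, 158 and 19. With the block, 34 of all genes fell in DND41, against 240, and 37 rose in KOPT-K and 20 in T-ALL1. With crossed numbers, 67 of all genes rose in KOPT-K and 135 in T-ALL1. With no filter, 77 of 19775 genes rose in T-ALL1.

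Of 7 higher in the average, 1 passed with the replicate block, 4 with median centring, 11 with the trended prior, 4 without T-ALL1, 2 without KOPT-K, 2 without HPB-ALL, 2 over CEM, DND41 and HPB-ALL alone and 0 over KOPT-K and T-ALL1 alone. For the 1 lower in the average, 0 passed with the replicate block, with crossed numbers, with the mean of all probe sets, with no filter, over KOPT-K and T-ALL1 alone, or without CEM, DND41 or KOPT-K; 2 passed with the trended prior, 5 over CEM, DND41 and HPB-ALL alone and 6 without T-ALL1. Of 5 that differed between lines, 1 passed with the replicate block, 3 with crossed numbers, 13 with the trended prior, 1 without DND41 and 0 over KOPT-K and T-ALL1 alone. Of all genes, 309 rose in the average in the main fit, 127 with the block, 206 with median centring and 438 with the trended prior. The count was 409 without T-ALL1, 147 without KOPT-K and 170 without HPB-ALL. Over CEM, DND41 and HPB-ALL alone it was 208, and over KOPT-K and T-ALL1 alone 16. In the main fit 847 of all genes fell in the average, against 324 with the block and 1027 with the trended prior. The array numbers were not taken as pairs, so a call lost under the block is not read as a weaker effect. The crossed numbers, and the tests between lines that leave out lines, were chosen after seeing the data. Between lines, 252 of all genes passed in the main fit, 37 with the block, 148 with crossed numbers and 596 with the trended prior.

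Leaving out 1 array gave 1 to 7 lower in DND41, 1 to 7 higher in KOPT-K, 1 to 13 higher in T-ALL1, 4 to 9 higher and 0 to 2 lower in the average, 4 to 16 between lines, and 0 in the other counts. Over all genes, the counts in T-ALL1 and between lines were largest, among these fits, without T-ALL1 control 2. The actin 3' to 5' difference was -0.312 over all lines (NBD minus control, exact two-sided permutation p = 0.174) and 0.0036 without T-ALL1 (p = 0.957). With it as a covariate, 382 of all genes rose and 497 fell in the average, against 309 and 847 without it; of 11 listed genes followed, 9 kept their side of the threshold and 2 fell short of it. The cause of these shifts was not tested; fits on 4 arrays hold fewer samples, and no filter tests more genes.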
